A study of Rattus norvegicus with 8 samples.

Results

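Fos, Fosb, Fosl2, Jun, Junb, Jund, Egr1, Egr2, Egr3 and Egr4 encode transcription factors of the AP-1 and early growth response families, and their messenger RNA was measured in rat hippocampus after treatment with yohimbine and imipramine together. These 10 genes, of 19308 named genes on the array, were chosen by name, as every probe that the array annotation assigns to them. The Y+I group held 4 male Sprague Dawley rats aged 3 months that had been given both drugs for 7 days, and the vehicle group held 4 rats of the same strain, sex and age that had been given vehicle for 7 days; tissue was taken 2 h after the last treatment in both. Imipramine, a tricyclic drug used against depression, slows the return of noradrenaline and serotonin into nerve endings, and yohimbine is an antagonist of the alpha2 class of adrenergic receptors. Each animal had its own 1-colour Agilent array of whole hippocampal tissue, so n = 4 in every group mean. Doses and routes were not given in the sources used here, and rats given either drug alone were not analysed here, so the comparison does not separate the drugs.

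Fos and Jun proteins pair through leucine zippers to form AP-1, which binds the sequence TGACTCA, and Egr proteins bind GC-rich DNA through zinc fingers. Most of these genes are immediate early genes: in neurons, calcium entry and kinase signalling switch them on within minutes through factors already bound at their promoters, and the messages are short-lived. They are used in hippocampus as markers of recently active neurons, and Egr1 is known for its part in the late phase of synaptic plasticity. Fosb and Jund are known to be more lasting, the first through a stable shortened protein and the second through steady expression.

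The array carried 13 probes for the 10 genes. Fosl2, Egr1 and Egr3 had a pair of probes each and the other 7 genes had a single probe, and 12 of the 13 probes, at least 1 for each gene, passed the filter on dim signals. The probe sequences are shown for the genes closest to a change, Jun, Fos and Fosl2, and for the 3 genes whose paired probes can be set against each other. They are given 5′ to 3′ in lower case as in the array files, with no part marked.
Fos: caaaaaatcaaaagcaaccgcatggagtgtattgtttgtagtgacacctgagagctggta
Jun: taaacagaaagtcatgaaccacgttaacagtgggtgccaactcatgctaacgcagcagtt
Fosl2, brighter probe: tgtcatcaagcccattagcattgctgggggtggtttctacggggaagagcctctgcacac
Fosl2, dimmer probe: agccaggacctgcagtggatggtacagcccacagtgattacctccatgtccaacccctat
Egr1, brighter probe: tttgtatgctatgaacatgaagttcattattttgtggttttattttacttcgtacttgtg
Egr1, dimmer probe: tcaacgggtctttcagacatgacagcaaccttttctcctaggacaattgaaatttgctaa
Egr3, brighter probe: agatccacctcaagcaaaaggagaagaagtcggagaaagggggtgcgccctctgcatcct
Egr3, dimmer probe: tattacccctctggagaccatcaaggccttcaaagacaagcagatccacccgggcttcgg
The Jun probe lies on the minus strand of chr5:115359410-115359469 of rat build rn4, the Fos probe on the plus strand of chr6:109561941-109562000, and the brighter and dimmer Egr1 probes on the plus strand at chr18:27347173-27347232 and chr18:27346058-27346117. The brighter and dimmer Egr3 probes lie on the plus strand at chr15:50479803-50479862 and chr15:50479417-50479476, and both Fosl2 probes are listed as unmapped. No source used here states which exon or untranslated stretch a probe covers. Among the 75 pairs of probes for different genes of the set, the longest shared run was 9 bases, in probes that are 60 bases long.

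Upstream sequence from RefSeq, on build GRCr8, reached from 250 bases before to 50 after the start. It was at hand for 7 of the 10 genes, and Fos, Jun and Egr3 had none and were not searched. The serum response element, where serum response factor recruits kinase-regulated partners, was found in 2 of these 7, Egr1 and Egr2, against 1.64% of 33469 rat promoters of the same length. Both are shown because they carry the same element, marked in capitals.
Egr1, chr18:26736828-26737127, plus strand: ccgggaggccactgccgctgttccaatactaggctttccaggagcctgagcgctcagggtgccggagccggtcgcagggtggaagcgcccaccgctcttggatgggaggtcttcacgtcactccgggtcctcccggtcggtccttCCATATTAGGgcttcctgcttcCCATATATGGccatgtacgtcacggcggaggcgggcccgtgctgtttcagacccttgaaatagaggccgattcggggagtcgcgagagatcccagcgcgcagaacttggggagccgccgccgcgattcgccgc
Egr2, chr20:21054392-21054691, minus strand: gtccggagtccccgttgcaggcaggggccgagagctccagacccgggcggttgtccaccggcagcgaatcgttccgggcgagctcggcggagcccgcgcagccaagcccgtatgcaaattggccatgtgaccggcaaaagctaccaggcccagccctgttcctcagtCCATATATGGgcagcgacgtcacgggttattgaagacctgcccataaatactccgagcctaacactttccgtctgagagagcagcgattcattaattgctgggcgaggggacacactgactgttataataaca
The copy nearest the start lay 83 bases before it in both genes, and Egr1 held a further copy upstream of that. TGACG, the short form of the cyclic AMP response element bound by CREB, was found on either strand in 5 of the 7, those of Junb, Jund, Egr1, Egr2 and Egr4, against 21.2% of all promoters. The full element TGACGTCA, which contains the short form on both strands, was found in that of Jund, against 1.83% of all. GCGTGGGCG, a site that Egr proteins bind, was found in that of Jund and GCGGGGGCG in that of Fosl2, against 0.544% and 2.73% of all promoters. The AP-1 site TGACTCA was found in 0 of the 7, against 4.63%. Both strands were searched for each motif, and a match is a stretch of letters and not a measured binding site.

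No gene of the set passed the threshold: 0 of 10 were called at an adjusted p under 0.05 in limma, against 2.33% of the 18803 features tested. At an unadjusted p under 0.05, 2 of the 10 passed, Jun and Fosl2, both lower in Y+I, against 15.6% of all features (6.46% higher and 9.16% lower). The log2 fold change was below 0 for 5 of the 10 and above 0 for the other 5, and 54.1% of all features were below 0. The median log2 fold change of the 10 genes was -0.07, beside -0.02 for all features. The groups did not overlap for 1 of the 10, Jun, and for 11.7% of all features (6.65% with Y+I lower). These shares lie near those of the whole array. All 10 genes were well above background on all 8 arrays, whereas a filter on all 8 arrays left 15182 features. Of the features called, 43.3% were higher in Y+I with that filter, against 31.7% in the main test.

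**Figure D1:**
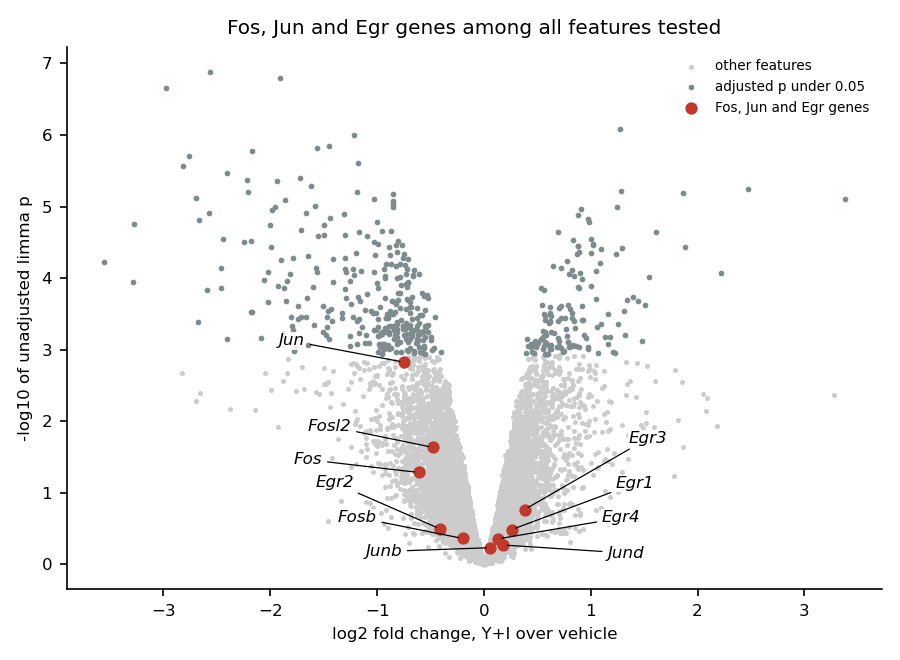
Every feature tested, with the log2 fold change of Y+I over vehicle on the horizontal axis and -log10 of the unadjusted limma p on the vertical axis. Light points did not pass an adjusted p of 0.05, dark grey points did, and the 10 Fos, Jun and Egr genes are red; Jun lies just under the called features at a log2 fold change of -0.75, and the other 9 lie between -0.61 and 0.38.

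Jun, the partner that gives AP-1 most of its activating strength, stood closest to a call. Values are normalised log2 signals, scaled on each array so that 0 is a probe at the 75th percentile. Jun had -0.66, -0.88, -0.16 and -0.80 in Y+I animals 1 to 4, against 0.06, -0.04, 0.34 and 0.16 in vehicle animals 1 to 4. All 4 Y+I animals were below all 4 vehicle animals, with Y+I animal 3 nearest to them. The means were -0.63 ± 0.32 in Y+I and 0.13 ± 0.16 in vehicle (SD, n = 4 each), a log2 fold change of -0.75 ± 0.17 (SE, 95% confidence interval -1.13 to -0.38), or a 1.69-fold lower signal in Y+I. The limma adjusted p was 0.0584, rank 478 of 18803 by p, and the exact permutation test of this gene alone gave a two-sided p of 0.0286, the smallest that 4 against 4 allow. The value sits at the threshold: the adjusted p was 0.0172 without Y+I animal 3 and between 0.102 and 0.165 without any other single array. It was also under 0.05 with normexp background correction (0.0363), cyclic loess (0.0444), array weights (0.0271), a filter on all 8 arrays (0.0436), no filter (0.0395) or without Y+I animals 2 and 3 (0.0472), with log2 fold changes of -0.91 to -0.67 over all 18 alternatives. The pair of spots of the probe differed little, with a median SD of 0.0184 within an array. In whole tissue, fewer cells of a type and less RNA per cell cannot be told apart.

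Junb and Jund, the other Jun proteins, had values on both sides of vehicle. Junb, which often restrains Jun at shared sites, had 2.06, 1.92, 1.92 and 2.20 in Y+I animals 1 to 4, against 2.13, 1.88, 1.84 and 2.01 in vehicle animals 1 to 4. The groups covered nearly the same range, and the log2 fold change was 0.06 (95% confidence interval -0.18 to 0.31, limma adjusted p = 0.835), from a probe with 1 spot per array. This interval was the narrowest of the 10 genes. Jund had 1.93, 2.48, 2.67 and 3.33 in Y+I animals 1 to 4, against 2.60, 2.73, 2.11 and 2.24 in vehicle. Y+I animals 1 and 4 were the lowest and the highest of all 8, so the vehicle values lay within the Y+I range. This gave a log2 fold change of 0.18 (95% confidence interval -0.45 to 0.81, limma adjusted p = 0.812).

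**Figure D2:**
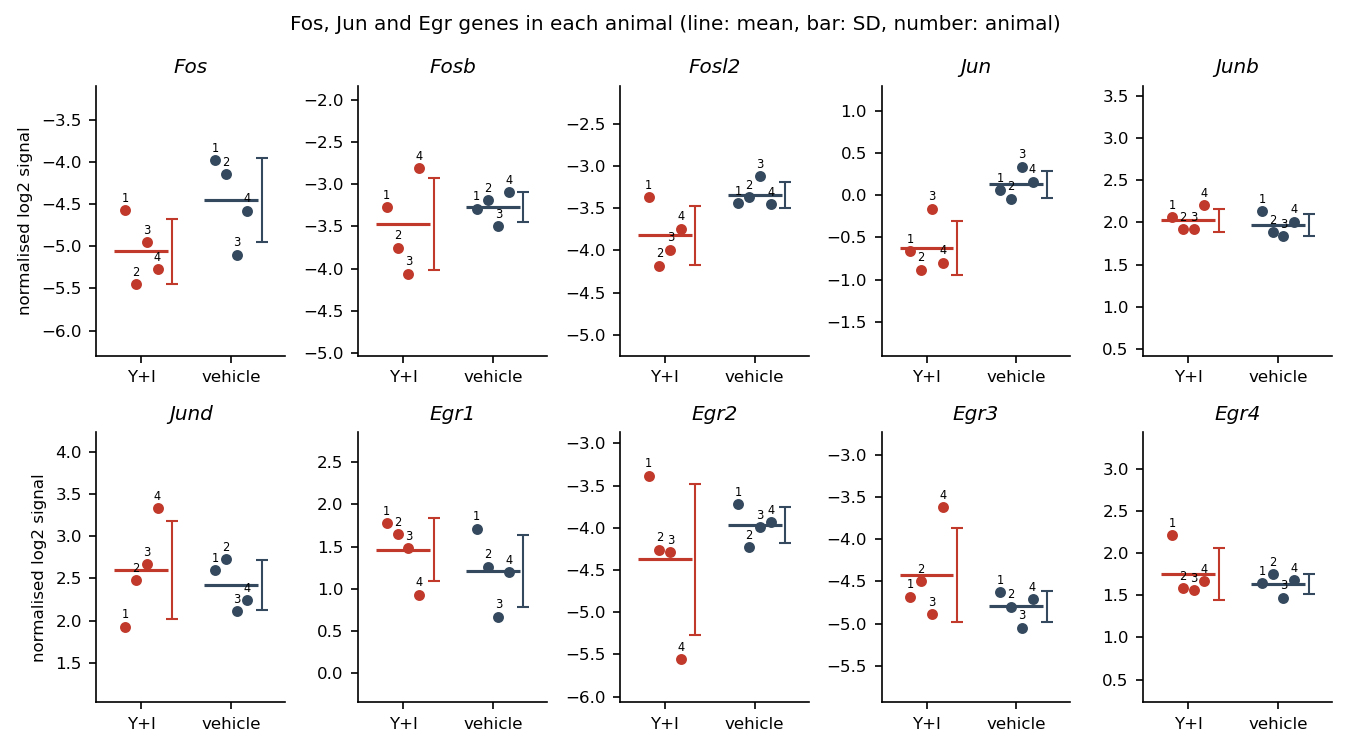
Normalised log2 signal of the 10 genes in each animal, Y+I in red and vehicle in blue, with the animal number above each point, the mean as a line and the SD as a bar (n = 4 each). Every panel spans the same number of log2 units; Jun is the panel without overlap, and Egr2 has the widest Y+I values, from -5.56 to -3.38.

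Fos, the prototype immediate early gene, had -4.57, -5.45, -4.95 and -5.27 in Y+I animals 1 to 4, against -3.98, -4.15, -5.10 and -4.58 in vehicle animals 1 to 4. Its 3 highest values belonged to vehicle animals 1 and 2 and Y+I animal 1, and vehicle animal 3 lay among the Y+I animals. The log2 fold change was -0.61 ± 0.27 (SE, 95% confidence interval -1.22 to 0.01, limma adjusted p = 0.325), and the exact permutation test gave p = 0.143. The Fos signal was dim, with a mean of -5.06 ± 0.39 in Y+I and -4.45 ± 0.50 in vehicle (SD, n = 4 each), although the probe was well above background on all 8 arrays. Normexp correction handles the background differently and here added an offset of 50 to each signal. After it the Fos log2 fold change was -0.05 (limma adjusted p = 0.87), or -0.14 from the median of all features. Processed Fos signals ran from 27.1 to 129, so such an offset narrows log2 differences by construction. The part of the offset in this value was not tested.

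Fosb, whose shortened splice form is known to build up with repeated stimulation, had -3.27, -3.75, -4.06 and -2.81 in Y+I animals 1 to 4, against -3.29, -3.19, -3.50 and -3.09 in vehicle animals 1 to 4. The Y+I values enclosed the vehicle values, with animal 4 highest and animal 3 lowest. On average Fosb differed by -0.20 on the log2 scale (95% confidence interval -0.77 to 0.36, limma adjusted p = 0.752). It was 0.23 without Y+I animals 2 and 3. No source used here states which splice forms the probe detects.

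Fosl2, which encodes Fra-2, had -3.37, -4.18, -3.99 and -3.74 at its brighter probe in Y+I animals 1 to 4, against -3.44, -3.37, -3.12 and -3.45 in vehicle. Of the Y+I animals, 3 were below every vehicle animal and animal 1 was level with vehicle animal 2. At this probe the log2 fold change was -0.48 ± 0.17 (SE, 95% confidence interval -0.87 to -0.08, limma unadjusted p = 0.0231 and adjusted p = 0.22). The dimmer probe of Fosl2 gave -5.17, -5.27, -5.17 and -4.92 in Y+I animals 1 to 4, against -5.23, -5.30, -4.77 and -5.00 in vehicle. There the groups overlapped, with a log2 fold change of -0.05 ± 0.14 (SE, limma adjusted p = 0.898 over all kept probes). The spots of the dimmer probe differed by a median SD of 0.23 within an array, against 0.124 for the brighter, while the SE of its fold change was the smaller of the pair.

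**Figure D3:**
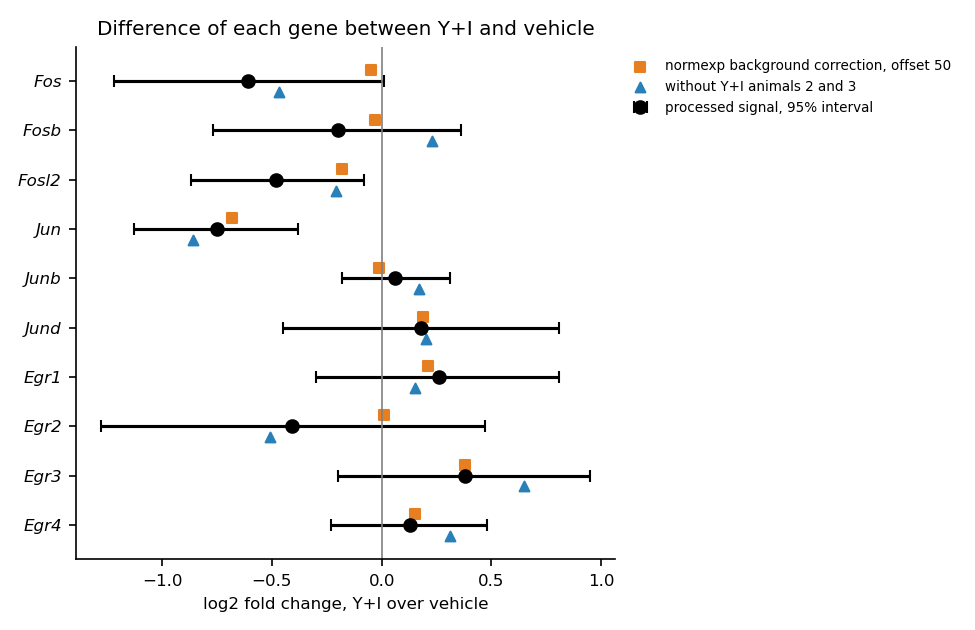
Log2 fold change of Y+I over vehicle for each gene: black circles with bars give the value and its 95% confidence interval, orange squares the value after normexp background correction, and blue triangles the value without Y+I animals 2 and 3. The Jun markers lie between -0.86 and -0.68, and the Fos and Egr2 squares lie at -0.05 and 0.01.

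Among the Egr genes, Egr1, also called Zif268, had 1.78, 1.65, 1.48 and 0.93 at its brighter probe in Y+I animals 1 to 4, against 1.71, 1.26, 0.67 and 1.20 in vehicle animals 1 to 4. Animals of both groups were spread over the same range, and vehicle animal 3 was the lowest of the 8. The log2 fold change was 0.26 ± 0.25 (SE, 95% confidence interval -0.30 to 0.81, limma adjusted p = 0.677). The dimmer Egr1 probe had -1.73, -3.23, -2.89 and -2.79 in Y+I animals 1 to 4, against -2.58, -2.90, -3.47 and -2.73 in vehicle. Its log2 fold change was also 0.26 (SE 0.32, limma adjusted p = 0.756 over all kept probes), and both probes put vehicle animal 1 highest and animal 3 lowest within vehicle. Within Y+I both put animal 1 highest but differed on the lowest, which was animal 4 at the brighter and animal 2 at the dimmer probe.

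Egr2, known as Krox20 and for its part in myelination by Schwann cells, had -3.38, -4.26, -4.29 and -5.56 in Y+I animals 1 to 4, against -3.72, -4.23, -3.99 and -3.93 in vehicle animals 1 to 4. Y+I animals 1 and 4 were the highest and the lowest of all 8. The SD between animals was 0.897 in Y+I and 0.211 in vehicle, while the 10 spots of the probe differed by a median SD of 0.125 within an array. Egr2 had a log2 fold change of -0.41 (95% confidence interval -1.28 to 0.47, limma adjusted p = 0.672), the widest interval of the 10 genes, and after normexp it was 0.01.

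Egr3, which shares targets with Egr1, had -4.68, -4.50, -4.89 and -3.62 at its brighter probe in Y+I animals 1 to 4, against -4.63, -4.80, -5.05 and -4.71 in vehicle animals 1 to 4. Y+I animals 4 and 2 were the highest of the 8, and Y+I animals 1 and 3 lay among the vehicle animals. Egr3 had a log2 fold change of 0.38 (95% confidence interval -0.20 to 0.95, limma adjusted p = 0.529). The dimmer Egr3 probe was well above background on 1 of 4 Y+I arrays and 3 of 4 vehicle arrays and was not tested in limma. Egr4 had 2.21, 1.58, 1.56 and 1.67 in Y+I animals 1 to 4, against 1.64, 1.75, 1.47 and 1.68 in vehicle. Y+I animal 1 stood above the other 7 animals, which lay close together. For Egr4 the log2 fold change was 0.13 (95% confidence interval -0.23 to 0.48, limma adjusted p = 0.755).

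Which animal was highest or lowest differed from gene to gene. In Y+I, animal 1 was the highest of its group for 5 genes (Fos, Fosl2, Egr1, Egr2 and Egr4) and the lowest for Jund. By contrast, animal 4 was the highest for 4 (Fosb, Junb, Jund and Egr3) and the lowest for Egr1 and Egr2. The array of animal 4 had the lowest 75th percentile of the signal of all 8, at 1045, and the part of the scaling in its values was not tested. Animal 2, with 65.3% of spots well above background, was the highest for 0 genes and the lowest for 4, and animal 3, with 64.4%, was the highest for Jun alone. In vehicle, animal 1 was the highest for 5 genes and animal 3 the lowest for 7, Jun and Fosl2 being highest in animal 3. The SD between animals was larger in Y+I than in vehicle for 8 of the 10 genes, with medians of 0.381 in Y+I and 0.178 in vehicle. Of all features, 77.8% had the larger SD in Y+I, with medians of 0.239 in Y+I and 0.134 in vehicle, so the genes shared this with the array as a whole. Y+I arrays had 64.4% to 74.8% of spots well above background, against 76.4% to 79.7% in vehicle, and the part of this difference in the spread was not tested.

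**Figure D4:**
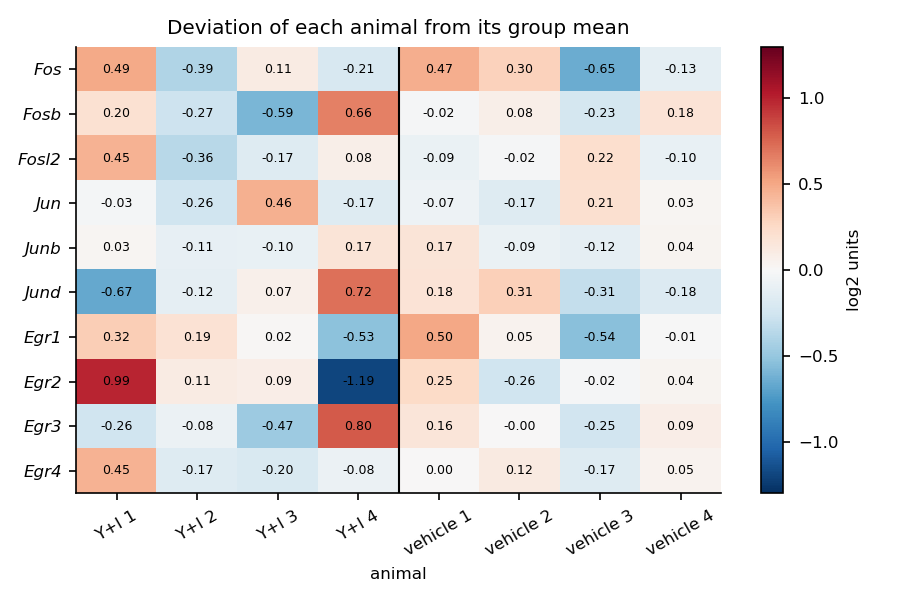
Deviation of each animal from the mean of its own group for each gene, in log2 units, with red above and blue below; Y+I animals are to the left of the line and vehicle animals to the right. The values of Egr2 run from 0.99 in Y+I animal 1 to -1.19 in Y+I animal 4, and those of Jund run the other way, from -0.67 to 0.72.

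The genes outside the set whose deviations most resembled the mean deviation of the 10 over the 8 animals were Tuba3a, Or2y1i, Slc25a25, Zfp358 and Hdgfl2. They were picked as the highest of 13208 named features by Pearson's correlation, which was 0.99, 0.986, 0.98, 0.976 and 0.967. This is a description without a test, and the points share array quality and scaling. The mean does not stand for every gene of the set, since 24 of its 45 gene pairs correlated above 0, with a median of 0.13. Jun, Jund, Egr2 and Egr3 had correlations of -0.432, -0.314, -0.142 and -0.0402 with the mean of the others.

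Genes around the set were read from lists. The lists were chosen with earlier results of these data known, so their counts beside the whole array are a description and not a test. Of the 12 measured AP-1 partners and related leucine zipper factors, 0 rose, 1 fell and 11 did not pass, with a median log2 fold change of -0.04. By comparison, 0.739% of all features rose and 1.6% fell. The one that passed was Batf3, a Jun partner known from dendritic cells in mouse, which was well above background on 0 of 4 Y+I arrays. Batf3 had -6.77, -7.31, -7.15 and -6.94 in Y+I animals 1 to 4, against -6.06, -6.09, -6.05 and -6.50 in vehicle. The adjusted p in limma was 0.0275, but the size of the difference is not measured, since the Y+I signal was not well above background. Batf3 entered the test only through the vehicle arrays, and the filter on all 8 arrays drops it. The call was lost and the value was 0.16 after normexp (adjusted p = 0.464), and it was lost with array weights (0.0745) and without Y+I animals 2 and 3 (0.117). Leaving out 1 array kept it for Y+I animal 1 or vehicle animal 4 and gave an adjusted p between 0.052 and 0.0828 for any other. For Batf2 the log2 difference was -0.30 (limma adjusted p = 0.171), and for Mafg, a small Maf factor, it was -0.25 (adjusted p = 0.489). Fosl1, the remaining Fos relative, and Batf did not pass the filter.

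None of the 24 measured upstream kinases and factors passed in limma, against 2.33% of all features. At an unadjusted limma p under 0.05 the count was also 0, against 15.6% of all features. Log2 fold changes of the 24 had a median of 0.05 and ran from -0.47 to 0.33. Creb1, the cyclic AMP response factor that binds several of these promoters, had -0.47 ± 0.22 (SE, limma adjusted p = 0.345) from a dim probe that was well above background on 2 of 4 Y+I arrays and turned to 0.08 with normexp. Mrtfa, a cofactor of serum response factor, had 0.20 (adjusted p = 0.351) and -0.02 at a second probe, and Rps6ka1, a kinase downstream of ERK, had -0.18 (adjusted p = 0.441). Srf, serum response factor, had 0.10 (adjusted p = 0.695), and Mapk9 and Mapk10, which phosphorylate Jun, had 0.32 and -0.23 (adjusted p = 0.505 and 0.499).

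**Figure D5:**
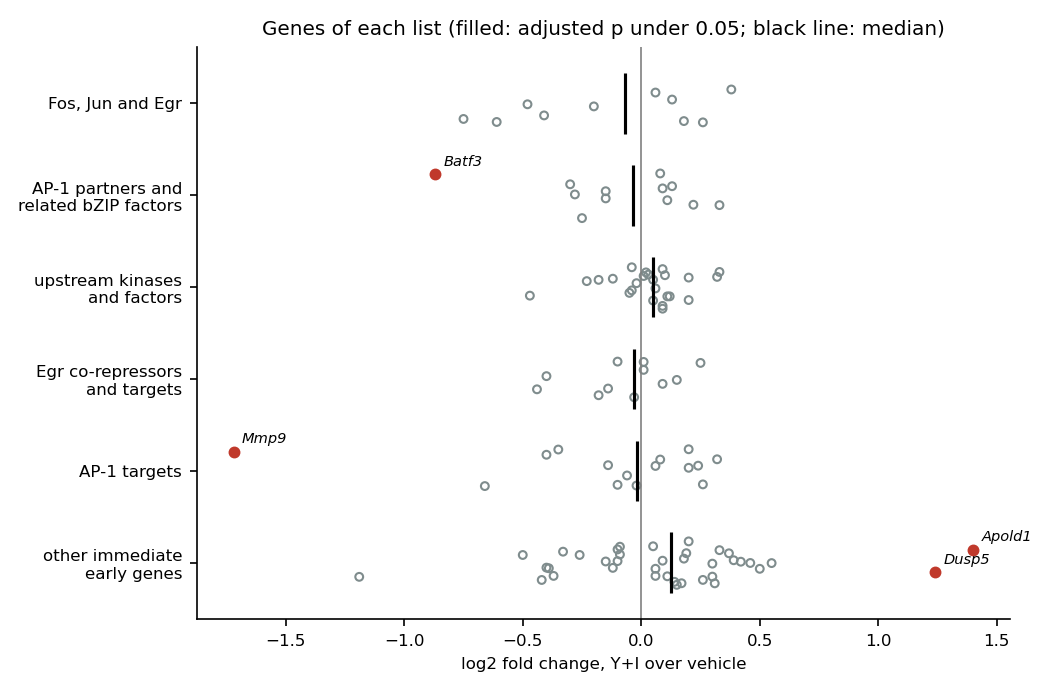
Log2 fold change of Y+I over vehicle for every measured gene of 6 lists, 1 point per gene, with a black line at the median; filled red points passed an adjusted p of 0.05. Medians lie between -0.07 and 0.13, and the 4 genes that passed are Batf3, Mmp9, Dusp5 and Apold1.

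Of 15 measured genes known as AP-1 targets, 0 rose, 1 fell and 14 did not pass (median -0.02). By comparison, 0.739% of all features rose and 1.6% fell. Mmp9, a matrix protease gene with AP-1 sites in its promoter, had -6.96, -7.28, -7.27 and -6.66 in Y+I animals 1 to 4, against -5.61, -5.29, -5.32 and -5.06 in vehicle, without overlap. Its log2 fold change was -1.72 ± 0.17 (SE, limma adjusted p = 0.00541), but Mmp9 was well above background on only 1 of 4 Y+I arrays, so its size is uncertain. Mmp9 too entered the test only through the vehicle arrays and is dropped by the filter on all 8 arrays, and the value was -0.19 with normexp (adjusted p = 0.399) and -1.35 in the authors' value table (adjusted p = 0.0873). Penk, the enkephalin precursor, had -0.52, -0.76, -0.79 and -0.95 in Y+I animals 1 to 4, against 0.11, 0.06, -0.13 and -0.43 in vehicle. These groups did not overlap either, and the log2 fold change of -0.66 ± 0.15 (SE) missed the threshold at a limma adjusted p of 0.0619. It passed with normexp (0.0342), cyclic loess (0.0488), the filter on all 8 arrays (0.0466) and no filter (0.0395). Gria2, an AMPA receptor subunit gene known as a target of the short Fosb protein, had 0.32 (adjusted p = 0.204), and Pdyn, the dynorphin precursor, had -0.40 (adjusted p = 0.396).

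Of 11 measured Egr co-repressors and targets (median -0.03), 0 passed in limma, against 2.33% of all features. At an unadjusted limma p under 0.05, 2 of the 11 were lower in Y+I and 0 higher, against 9.16% and 6.46% of all features. Vgf, a secreted neuropeptide precursor, had 3.19, 3.12, 3.20 and 3.07 in Y+I animals 1 to 4, against 3.80, 3.54, 3.39 and 3.45 in vehicle. All Y+I values were below all vehicle values, with a log2 fold change of -0.40 ± 0.11 (SE, limma adjusted p = 0.111). The growth factor gene Tgfb1 had -0.44 (limma adjusted p = 0.287) and turned to 0.16 with normexp. It was -0.02 in the authors' value table (limma adjusted p = 0.98). Tgfb1 was well above background on 2 of 4 Y+I arrays and entered the test only through the vehicle arrays, so its size is uncertain. The co-repressors Nab1 and Nab2, which restrain Egr proteins, had 0.25 and 0.09 (limma adjusted p = 0.868 and 0.697). Nab1 was well above background on 2 of 4 Y+I arrays, with an SD of 1.22 in Y+I, and entered the test only through the vehicle arrays. Arc, the dendritic Egr target, had -0.10 (limma adjusted p = 0.858).

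Of 38 other measured immediate early genes, 2 rose, 0 fell and 36 did not pass, against 0.739% of all features that rose and 1.6% that fell. The median log2 fold change of the 38 was 0.13. At an unadjusted limma p under 0.05, 9 were higher and 4 lower, against 6.46% and 9.16% of all features. Ccn1, among those lower, was well above background on 2 of 4 Y+I arrays and entered the test only through the vehicle arrays. Dusp5, a phosphatase that inactivates ERK, had -0.14, -0.26, -0.23 and -0.18 in Y+I animals 1 to 4, against -1.95, -1.39, -1.11 and -1.32 in vehicle. The Y+I animals lay within a narrow band above all vehicle animals (log2 fold change 1.24 ± 0.17, SE, limma adjusted p = 0.0105), and the call was lost without Y+I animals 2 and 3 (0.0641). Apold1, an early response gene of endothelial cells, had -1.95, -1.96, -2.85 and -2.20 in Y+I animals 1 to 4, against -3.81, -3.90, -3.63 and -3.21 in vehicle. Its log2 fold change was 1.40 ± 0.23 (SE, limma adjusted p = 0.0211), and leaving out 1 array kept the call for Y+I animal 3 or vehicle animal 4 and gave an adjusted p between 0.0511 and 0.0642 for any other. Dusp6, another ERK phosphatase gene, had 0.55 (adjusted p = 0.0678). Npas4, a neuron-specific activity gene, did not pass the filter.

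Markers of the dissected cells moved beside these values. For comparison, 0.739% of all features rose and 1.6% fell at a limma adjusted p under 0.05. At an unadjusted limma p under 0.05, 6.46% of all features were higher and 9.16% lower. The 11 pyramidal and granule neuron markers were all measured, and 0 of 11 passed. Their summed signal, in multiples of the 75th percentile, was 68.7 to 79.8 in Y+I and 38.4 to 60.9 in vehicle. Fibcd1 and Bok gave most of these sums. The median log2 fold change of the 11 was 0.37, and 3 were below 0. At an unadjusted p under 0.05 in limma 5 were higher and 0 lower. The 10 endothelial and mural markers summed to 12.8 to 14.8 in Y+I and 16.8 to 17.1 in vehicle, and 1 fell, Kdr, a vascular growth factor receptor gene. Slco1a4 gave most of these sums. Of the 10, 8 were below 0, while Cdh5 and Cldn5 had 0.02 and 0.01. At an unadjusted limma p under 0.05, 5 of the 10 were lower and 0 higher. Abcb1a, among those lower, was well above background on 3 of 4 Y+I arrays. Of 8 meningeal and fibroblast markers 3 fell, with sums of 3.27 to 4.16 in Y+I and 5.13 to 6.26 in vehicle. Among the 3, Col1a1 had a log2 fold change of -1.03, and -0.16 at a second probe. Of the 8, 7 were below 0, and Dcn had 0.19. At an unadjusted limma p under 0.05, 5 of the 8 were lower and 0 higher. Of 9 thalamus, habenula and striatum markers 2 fell and 1 rose, with sums of 7.19 to 9.33 in Y+I and 6.66 to 8.45 in vehicle. Tac3, the one that rose, was a large part of these sums, while 7 of the 9 were below 0 and the median was -0.64. At an unadjusted p under 0.05 in limma 6 were lower and 1 was higher. Drd1, among those lower, was well above background on 0 of 4 Y+I arrays and entered the test only through the vehicle arrays. Of the 5 blood cell markers measured, of 6 listed, 2 fell, the red cell genes Hbb and Alas2, with sums, to which Hbb gave most, of 6.76 to 10.6 in Y+I and 15.2 to 17.6 in vehicle. Slc4a1, another red cell gene, had -0.08 (limma adjusted p = 0.887) and was well above background on 1 of 4 Y+I arrays. The neutrophil genes S100a8 and S100a9 had log2 fold changes of 2.18 and 2.08 (limma adjusted p = 0.158 and 0.129). Both were well above background on 3 of 4 Y+I arrays, with SDs of 1.55 and 1.37 in Y+I. All 3 genes entered the test only through the vehicle arrays. Of the 6 neocortex markers 0 passed, with sums of 0.624 to 1.07 in Y+I and 1.03 to 1.29 in vehicle, and of the 7 oligodendrocyte markers 1 rose, with sums of 157 to 207 in Y+I and 160 to 177 in vehicle. For astrocytes and microglia 0 of 7 markers passed in each. For choroid plexus 0 of 3 passed, with sums of 0.312 to 1.45 in Y+I and 0.201 to 4.53 in vehicle, and with Kl, Kcnj13, Otx2 and F5 not passing the filter. The part of these shifts in the values of Jun, Fos or the other genes was not tested.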

How the data were processed

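Per the labels' protocols, total RNA was labelled with Cy3. Per the file headers, Agilent Feature Extraction 10.5.1.1 measured the intensity of every spot and of its surroundings and wrote a processed intensity, background-subtracted and detrended within the array. A value table from the authors gives the arrays on a log2 scale. Against the scanner signal these had a slope of 0.982 to 0.993 in the same direction, column medians of -3.51 to -3.35 and a 75th percentile of 0.01. Their scale and centring are not given in the sources used here, and they entered one of the alternatives.

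The main values were log2 processed signals, from which the 75th percentile over all noncontrol spots was subtracted array by array. Spots marked as outliers were left out, 0 were saturated, and replicate spots were averaged. A probe was kept if all 4 arrays of either group had it well above background (in at least 50% of its spots) and each group had at least 3 values, which left 21370 of 30367 probes. Symbols were updated through RefSeq (assembly GRCr8), 7418 probes had no gene name, and the brightest kept probe stood for each gene, giving 18803 features. The test was limma 3.58.1 (lmFit, eBayes; R 4.3.3) over all features, two-sided, calling an adjusted p (Benjamini-Hochberg) under 0.05; single genes also had an exact permutation test. The procedure was also run on simulated data with independent normal noise. These held no shared array effects and no slide rows, so the run cannot show whether the calls here are sound. Alternatives changed background correction (normexp with an offset of 50), normalisation, filter, probe choice, array weights and the arrays used. All arrays lay on 1 slide with each group on its own row, so row and treatment cannot be told apart. The 75th percentile of the signal was 1045 to 1971 in Y+I and 1939 to 2106 in vehicle, and 8 arrays limit the precision. The genes and lists were chosen with earlier results of these data known. From each list, the genes that passed and the 3 of smallest p were named, and other listed genes were named after their values were seen. Some listed genes are not reported here. Figures were drawn with matplotlib 3.10.9.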

Additional observations from a re-analysis of the deposited data

Results flagged for a closer look

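Egr4 in Y+I animal 1, at a normalised log2 signal of 2.21, was far from the other 3 Y+I animals at 1.56 to 1.67, and its gap to the nearest of them, as a share of the range of the group, was just above the critical value of Dixon's test. It was the only such value among 26 sets of 4 animals (13 probes in each group), and chance flags about 1 in 20. Without this animal the Egr4 log2 fold change was -0.03 (limma adjusted p = 0.927).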

How the results depend on the processing

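The count of changed features was 439 (31.7% higher in Y+I). It was 665 with cyclic loess, 3887 with no filter on background (86.5% higher), 144 with a replicate block and 164 without Y+I animals 2 and 3, and it ranged from 121 (without vehicle animal 4) to 355 (without Y+I animal 3) without 1 array, the other 6 giving 189 to 285. With normexp it was 602 (66.4% higher), where the median of all features was 0.09 and Jun lay -0.77 from it; with the filter on all 8 arrays 43.3% were higher. The count of Fos, Jun and Egr genes called was 0, and 1, always Jun and lower, with normexp, cyclic loess, the filter on all 8 arrays, no filter, array weights and without Y+I animals 2 and 3; it ranged from 0 to 1 without 1 array. The cause of these differences was not tested. Directions turned for Fosb (0.23 without Y+I animals 2 and 3), Junb (-0.01 with normexp), Jund (-0.06 with array weights and -0.06 without Y+I animal 4), Egr2 (0.01 with normexp and 0.02 with array weights), Egr4 (-0.03 without Y+I animal 1) and, all with normexp, Batf3 (0.16), Tgfb1 (0.16) and Creb1 (0.08). These signs are taken from 0, whereas the normexp median of all features was 0.09. Measured from that median, Egr2 lay at -0.08, on the side of its main value, and Junb at -0.10. Creb1 was close to the median itself. Without Y+I animal 1, Egr4 lay at -0.00 from the median of all features. Over the arrays left out in turn, the log2 fold change ranged from -0.83 to -0.45 for Fos, -0.42 to -0.01 for Fosb, -0.63 to -0.36 for Fosl2, -0.91 to -0.67 for Jun, 0.00 to 0.12 for Junb, -0.06 to 0.40 for Jund, 0.07 to 0.43 for Egr1, -0.74 to -0.01 for Egr2, 0.11 to 0.53 for Egr3 and -0.03 to 0.19 for Egr4. Fos, Fosl2, Jun, Egr1 and Egr3 kept their direction in all 18 alternatives. Animal numbers did not pair the arrays: same-numbered animals had correlations of deviations of -0.111 to 0.0461, and with the block Jun had an adjusted p of 0.068, and Batf3 (0.0925) and Apold1 (0.068) no longer passed. Dim probes, such as those of Fos and Egr2, limit what can be said, since their values moved with the background correction. The normexp setting added an offset of 50, which by itself narrows the log2 differences of dim probes.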
